A study of Mus musculus with 4 samples.

Results

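The genes described are 10 that encode RNA-binding proteins controlling splicing and mRNA fate in neurons: Nova1, Nova2, Rbfox1, Rbfox2, Rbfox3, Ptbp1, Ptbp2, Srrm4, Elavl3 and Elavl4. They were taken by gene symbol from a table of 32681 genes. All 10 were present, and all 10 passed the filter on low values that left 18110 genes for testing. The RBFOX, NOVA, PTB and SRRM4 proteins decide which alternative exons are kept in a neuronal mRNA, and the neuronal ELAV proteins bind AU-rich and U-rich stretches and regulate the stability, translation and splicing of their targets. During cortical neurogenesis PTBP1 is high in progenitors and glia and its paralog PTBP2 rises as neurons form, while SRRM4 promotes short neuronal exons. RBFOX3 is the NeuN antigen of differentiated neurons, and ELAVL3 and ELAVL4 (HuC and HuD) appear early in neuronal differentiation.

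The study looked for transcripts downstream of DcpS, the scavenger decapping enzyme that hydrolyses the cap structure left after mRNA decay from the 3′ end. RNA was sequenced from 4 cultures of primary neurons prepared from neocortex of wild-type CD-1 mouse embryos at embryonic day 13 and grown in Neurobasal medium with B27 supplement. A short hairpin RNA (shRNA) was transfected into every culture: a control hairpin in 2 (control 1 and 2) and a hairpin against DcpS in the other 2 (DcpS shRNA 1 and 2). The sources used here do not give the hairpin sequences, the share of cells transfected or the time in culture. They also do not say whether replicate cultures had separate litters as their source. The p-values then measure only the spread among these 4 samples, and that spread may be technical.

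The libraries held 17754768 to 21793685 counted reads. Dcps itself had normalised read counts of 499.8 and 506.6 in the controls, against 114.5 and 119.6 with DcpS shRNA, a log2 fold change of −2.10 (SE 0.11; limma, Benjamini-Hochberg adjusted p 1.52e-08) in the direction the labels give. Neuronal markers were present in every library: Tubb3, a neuronal tubulin, had normalised read counts of 19013 to 19935 and Map2, a dendritic microtubule protein, 20246 to 21924. Markers of other cells were present too. The oligodendrocyte-lineage gene Pdgfra had 92.8 to 153, the mural gene Pdgfrb 304 to 534, the astrocyte gene Gja1 412 to 706 and the matrix gene Col3a1 2719 to 4943. Only the oligodendrocyte gene Sox10 and the endothelial gene Cldn5, of the listed markers, were at 0 in any library, each in 2 of 4. These are bulk samples, so fewer cells of a type and less RNA per cell cannot be told apart.

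The 10 genes spanned a wide range of levels. On the RPKM scale (reads divided by exon length and library total, computed here with GENCODE M21 exon lengths), Rbfox2 had the highest control level at 71.5 ± 0.521 (SD, n = 2 in this and every later mean) and Nova1 the lowest at 3.46 ± 0.0195. Between them the control levels ran, in falling order, through Elavl3 (61.0), Ptbp1 (44.2), Ptbp2 (37.0), Elavl4 (31.4), Srrm4 (24.1), Nova2 (21.4), Rbfox1 (19.1) and Rbfox3 (12.6). Over all 4 libraries the ranges of Rbfox2 and Elavl3 overlapped, as did those of Srrm4 and Nova2. Other neighbours in this order had ranges that did not overlap.

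**Figure D1:**
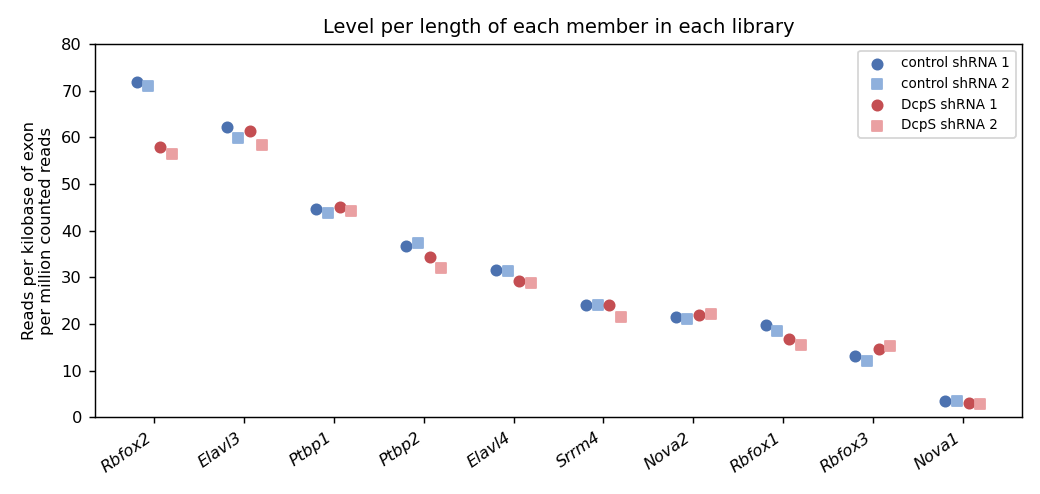
Level per length of the 10 genes (x axis, in falling order of the control mean) as RPKM (y axis); each point is 1 of 4 libraries. Rbfox2 moves from above Elavl3 in the controls (71.8 and 71.1) to below it with DcpS shRNA (58.0 and 56.4).

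With DcpS shRNA, Rbfox2 and Rbfox1 were lower and Rbfox3 was higher, and the other 7 genes did not pass the test (limma on log2(normalised read count + 1), Benjamini-Hochberg adjusted p under 0.05 over all 18110 genes).  Of all genes tested 5.79% passed, 2.14% higher and 3.65% lower, and of the 7371 genes with a mean normalised count at least that of the lowest of the 10, Nova1, 8.48% passed, 3.69% higher and 4.79% lower. The median of the 10 log2 fold changes was −0.10, against 0.00 over all genes tested (0.000742), and 3 of the 10 values were above 0. For 8 of the 10 genes the 2 groups did not overlap, a state shared by 48.4% of all genes tested and by 54% of those at or above the level of Nova1. With 2 libraries per group the calls rest on a spread pooled across genes. Without DcpS shRNA 1 the log2 fold changes of Ptbp2 and Srrm4 were −0.212 and −0.169, against −0.159 and −0.0876 with all libraries. With DESeq2 1 of the 10 passed, Rbfox2, and the count over all genes was 448 in place of 1048.

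**Figure D2:**
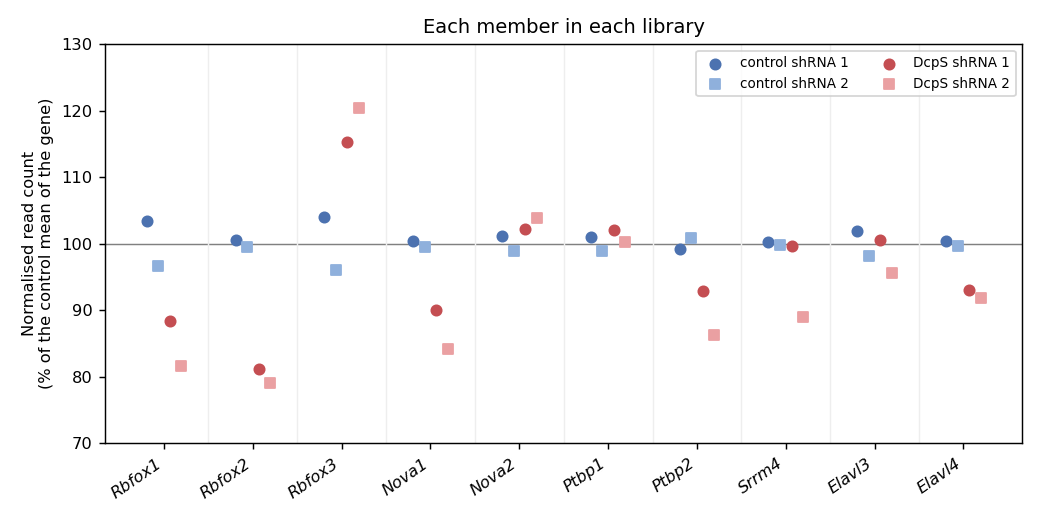
Normalised read count of each gene in each library as a percent of that gene's control mean (y axis); circles are replicate 1 and squares replicate 2, blue for control shRNA and red for DcpS shRNA. The points of Rbfox2 and Rbfox1 with DcpS shRNA lie below their controls, those of Rbfox3 above, and those of Ptbp1 and Elavl3 overlap their controls.

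Rbfox2 encodes the most broadly expressed of the 3 RBFOX splicing factors, present in neurons and in many other cells. The gene (ENSMUSG00000033565.18) lies on chromosome 15, 77078990 to 77307004, minus strand of GRCm38. Its normalised read counts were 11595 and 11461 in the controls, against 9350 and 9109 with DcpS shRNA. Both DcpS shRNA libraries lay below both controls, by far more than either pair of replicates differed. The mean fell from 11528 ± 94.5 to 9229 ± 171, a change of −19.9% (95% interval −25.5% to −14.0%). Its log2 fold change was −0.32 (SE 0.05; limma, Benjamini-Hochberg adjusted p 0.000743), and the gene ranked 161 of 18110 by p. In each of the 14 alternative settings tried Rbfox2 passed, with values of −0.34 to −0.30 on the log2 scale. In the 4 that leave out a library, the lone library of a group is assumed to vary like the other group.

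Rbfox1 encodes a neuronal paralog, which binds the same short RNA word as Rbfox2 and regulates exons of ion channel and synaptic genes. It lies on chromosome 16, 5885355 to 7411526, plus strand, and spans 1526.2 kb. The controls had normalised read counts of 1719 and 1607, and the DcpS shRNA libraries 1470 and 1357. The groups did not overlap, but the gap between them was only slightly wider than the gap within each group. The change was −15.0% (95% interval −22.3% to −7.02%), a log2 fold change of −0.23 (SE 0.06; limma, Benjamini-Hochberg adjusted p 0.0324). Rbfox1 did not pass when control 1 was left out (limma, Benjamini-Hochberg adjusted p 0.276), when DcpS shRNA 2 was (0.0785), or in DESeq2 (0.155).

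Rbfox3, the gene of the neuronal nuclear antigen NeuN, moved the other way. It lies on chromosome 11, 118489762 to 118911597, minus strand. Its normalised read counts were 1513 and 1396 in the controls, against 1677 and 1751 with DcpS shRNA, and both DcpS shRNA libraries were above both controls. The mean rose from 1454 ± 82.7 to 1714 ± 52.3, by 17.9% (95% interval 8.05% to 28.7%), a log2 fold change of 0.24 (SE 0.06; limma, Benjamini-Hochberg adjusted p 0.0261). Rbfox3 did not pass when control 2 was left out (limma, Benjamini-Hochberg adjusted p 0.318) or in DESeq2 (0.136).

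The make-up of RBFOX transcripts differed between the groups. Rbfox2 gave 68.6% and 69.9% of the summed RPKM of the family in the controls, against 64.9% and 64.8% with DcpS shRNA, whereas Rbfox3 gave 12.5% and 11.9% against 16.3% and 17.4%. The share of Rbfox1 was 17.8% to 18.9% in the 4 libraries, with overlapping groups. The summed RPKM of the 3 genes was 103 ± 2.12 in the controls and 88.3 ± 1.65 with DcpS shRNA, a change of −14.4%. Within a library the log2 ratio of Rbfox3 to Rbfox2 was −2.94 and −3.04 in the controls, against −2.48 and −2.38 with DcpS shRNA, a difference of 0.56, or 1.47-fold. The log2 ratio of Rbfox3 to Rbfox1 was below 0 in the controls, −0.18 and −0.20, and above 0 with DcpS shRNA, 0.19 and 0.37. For each ratio the exact two-sided permutation p was 0.333, the smallest that 2 libraries against 2 allow, so no ratio could pass a threshold of 0.05 by that test.

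**Figure D3:**
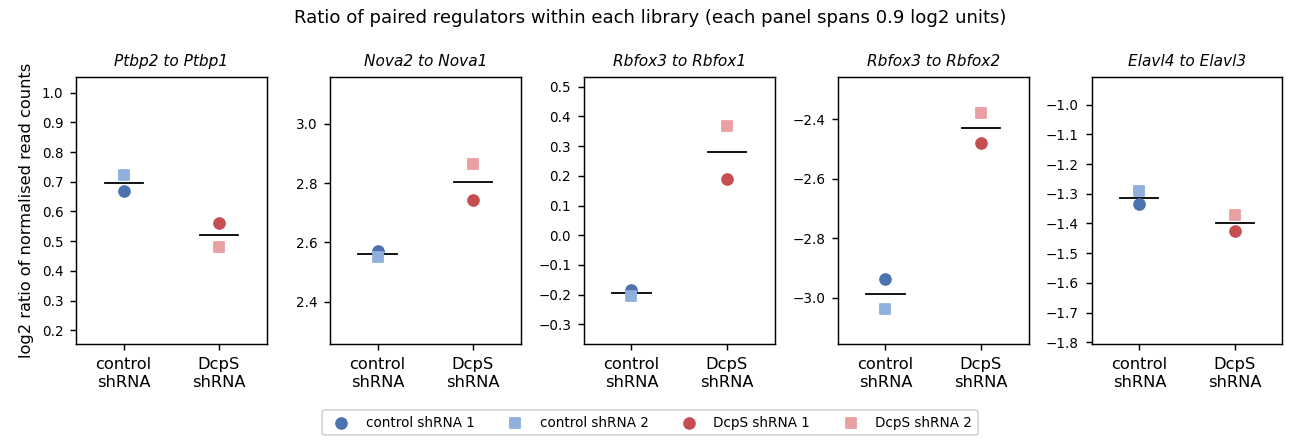
log2 ratio of the normalised read counts of paired regulators within each library (y axis, each panel spanning the same number of log2 units); points are libraries and bars are group means. The Rbfox3 to Rbfox2 and Rbfox3 to Rbfox1 ratios differ between groups by 0.56 and 0.47, more than the 3 other ratios.

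The 3′ UTRs of the 10 genes were searched, on the transcript strand, for the words ACGTGCA and CACGTGC, which are shared with the Dcps transcript. The words came from an earlier analysis of these data and are no independent evidence. Rbfox2, Ptbp2 and Elavl3 held at least 1 of them in a GENCODE M21 3′ UTR, and Nova1, Nova2, Rbfox1, Rbfox3, Ptbp1, Srrm4 and Elavl4 held none. The sites are shown with the Dcps site because they let the genes with a word be compared with the changes, with the words in capitals (both words together read CACGTGCA) and 10 flanking bases on each side.
Dcps (chr9:35124756-35124763, minus strand, GRCm38): ctatcacctgCACGTGCAtttcacagct
Rbfox2 (chr15:77079605-77079612, minus strand, GRCm38): ctggggcggaCACGTGCAagttagagct
Elavl3 (chr9:22017637-22017644, minus strand, GRCm38): cgcacgcacgCACGTGCAcataagcaaa
Ptbp2 (chr3:119719541-119719547, minus strand, GRCm38): gacatgacttACGTGCAtttaaatata

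The Rbfox2 word began 4550 bases after the stop codon of a 5172-base 3′ UTR and was present in 2 of 8 scanned Rbfox2 transcripts; the Elavl3 word was in 1 of 2 and the Ptbp2 word in 2 of 4. Elavl3 had the same 8 bases and a log2 fold change of −0.03, and Ptbp2 with ACGTGCA alone had −0.16. Either word was present in 8% of 13699 genes scanned and tested and both in 2.27%. Of the 311 genes with both words 24.1% were called lower and 0.965% higher, against 3.43% and 2.74% of the 12603 genes with neither. Of the 270 genes with ACGTGCA only, Ptbp2 among them, 27% were called lower and 1.85% higher, with a median of −0.142. Of the 515 with CACGTGC only 12.8% were called lower and 2.91% higher. The middle 50% of log2 fold changes of genes with both words ran from −0.33 to −0.02 (quartiles −0.331 and −0.0152), a range that holds the values of both Rbfox2 and Elavl3. Rbfox1, which fell, and Rbfox3, which rose, had neither word. A word is a match of letters, and its part in the change of Rbfox2 was not tested.

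NOVA proteins bind clusters of a short pyrimidine-flanked CA word and regulate exons of synaptic genes. Nova2 (chromosome 7, 18925888 to 18965319, plus strand), the predominant cortical paralog, had normalised read counts of 3583 and 3501 in the controls, against 3619 and 3681 with DcpS shRNA. Its groups lay side by side without overlap, and its change of 3.05% did not pass (95% interval −4.39% to 11.1%; limma, Benjamini-Hochberg adjusted p 0.720). Nova1 (chromosome 12, 46694517 to 46818929, minus strand) stood at 602 and 597 in the controls, against 540 and 505 with DcpS shRNA. That is −12.9% (95% interval −22.1% to −2.63%), which also did not pass (limma, Benjamini-Hochberg adjusted p 0.157) although both DcpS shRNA libraries were below both controls. Nova2 shares 2652 exon bases with Gm26821 on the opposite strand, which is not among the genes with deposited values. Nova1 shares 310 with Gm33869 on its own strand, which had normalised read counts of 62.58 to 100.5. The counting could split or drop reads of Nova1 from the shared bases, and whether it did so for Nova2 is not known. Nova1 took 13.9% and 14.0% of the NOVA RPKM in the controls, against 12.5% and 11.6% with DcpS shRNA. The summed RPKM of the pair was 25.1 and 24.6 in the controls, against 24.9 and 25.1 with DcpS shRNA. Within a library the log2 ratio of Nova2 to Nova1 was 2.57 and 2.55 in the controls, against 2.74 and 2.86 with DcpS shRNA (difference 0.24, exact permutation p 0.333).

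PTB proteins repress neuronal exons, and PTBP1 lowers its paralog by causing an exon of Ptbp2 to be skipped, which sends that mRNA to nonsense-mediated decay. Ptbp1 (chromosome 10, 79854427 to 79864771, plus strand) had normalised read counts of 4192 and 4106 in the controls, against 4232 and 4162 with DcpS shRNA. The groups overlapped, and the change of 1.15% had a 95% interval of −6.08% to 8.93% (limma, Benjamini-Hochberg adjusted p 0.910). In the annotation Ptbp1 shares exon bases with 3 genes on the opposite strand. They are Gm17134 (437 bases), which is not among the genes with deposited values, E130317F20Rik (295) and the protein-coding Plppr3 (251). The counting is not stated to use strand, so reads from these bases cannot be assigned. Ptbp2 (chromosome 3, 119718742 to 119784466, minus strand) had 6672 and 6783 in the controls, against 6251 and 5808 with DcpS shRNA. Both DcpS shRNA libraries were lower, and they differed from each other by more than the controls did. The change of −10.4% (95% interval −17.1% to −3.22%) did not pass (limma, Benjamini-Hochberg adjusted p 0.0976). Ptbp2 passed without DcpS shRNA 1 (limma, Benjamini-Hochberg adjusted p 0.000389) and with no filter on low values (0.0403).

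The log2 ratio of Ptbp2 to Ptbp1 was 0.67 and 0.72 in the controls, against 0.56 and 0.48 with DcpS shRNA, a difference of −0.18 (exact permutation p 0.333). The third paralog, Ptbp3, was picked for its family after values were seen: it had 973 and 956 in the controls, against 875 and 827 with DcpS shRNA (log2 fold change −0.18, SE 0.06; limma, Benjamini-Hochberg adjusted p 0.126).

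Srrm4, also called nSR100 (chromosome 5, 116439275 to 116591817, minus strand), encodes a neuronal SR-related protein that promotes microexons and the neuronal exon of Ptbp2. The controls had normalised read counts of 4156 and 4139, DcpS shRNA 1 had 4131 and DcpS shRNA 2 had 3688. Only DcpS shRNA 2 stood apart, and the change of −5.89% did not pass (95% interval −13.6% to 2.45%; limma, Benjamini-Hochberg adjusted p 0.460). Without DcpS shRNA 1 the log2 fold change was −0.17 and passed (limma, Benjamini-Hochberg adjusted p 0.0173), and without DcpS shRNA 2 it was −0.01 (−0.00568). Its antisense gene Srrm4os, which shares 68 exon bases with it, had 125 and 129 in the controls, against 113 and 60.3 with DcpS shRNA.

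Elavl3 (chromosome 9, 22015005 to 22052023, minus strand) had the higher RPKM of the 2 ELAV genes. Its normalised read counts were 8491 and 8168 in the controls, against 8372 and 7964 with DcpS shRNA, so the groups overlapped, and its change of −1.95% had a 95% interval of −9.07% to 5.73% (limma, Benjamini-Hochberg adjusted p 0.835). Elavl3 shares 256 exon bases with Gm49318 on the same strand, which is not among the genes with deposited values. Elavl4 (chromosome 4, 110203722 to 110351909, minus strand) had 3364 and 3338 in the controls, against 3119 and 3078 with DcpS shRNA. The 2 groups of Elavl4 were each tight and did not overlap. Its change of −7.53% (95% interval −14.2% to −0.352%) did not pass (limma, Benjamini-Hochberg adjusted p 0.245). The remaining paralogs were picked for their family after values were seen. The neuronal Elavl2 had a log2 fold change of −0.10 (SE 0.05; limma, Benjamini-Hochberg adjusted p 0.305) and the ubiquitous Elavl1 −0.02 (SE 0.05; 0.892). The log2 ratio of Elavl4 to Elavl3 was −1.34 and −1.29 in the controls, against −1.42 and −1.37 with DcpS shRNA, a difference of −0.08 (exact permutation p 0.333).

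**Figure D4:**
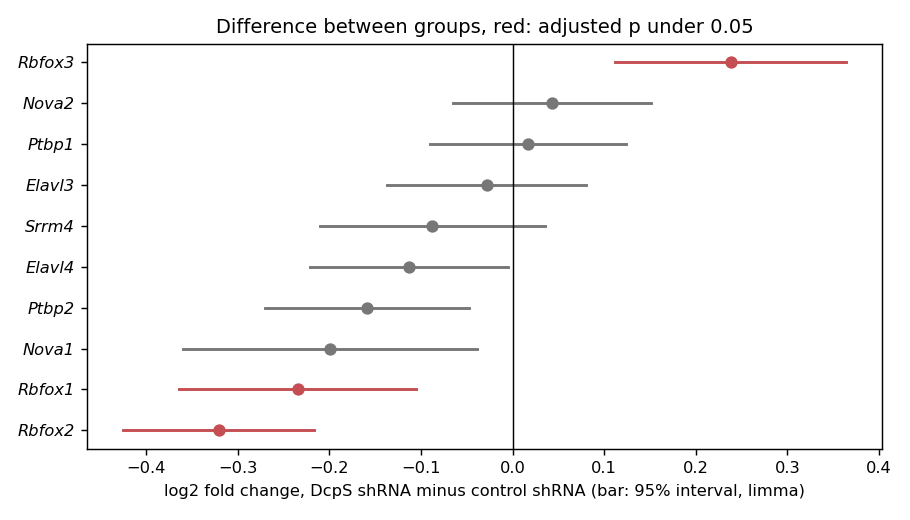
log2 fold change of each gene, DcpS shRNA minus control shRNA (x axis), with its 95% interval from limma; red marks an adjusted p under 0.05 over all genes tested. The values run from −0.32 for Rbfox2 to 0.24 for Rbfox3. The intervals are not adjusted for the number of genes, so those of called genes must exclude 0. Those of Nova1, Ptbp2 and Elavl4, which were not called, also exclude 0.

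The lists of other regulators of alternative splicing and RNA fate gave no calls in the main limma fit. Of all genes tested 5.79% were called and 18.7% had an unadjusted p under 0.05. Some RNA-binding genes outside these lists were called, and they are given under other observations. Of 31 tested genes of the CELF, MBNL, KHDRBS, CPEB, MSI, FMR and PCBP families and their like, 0 passed in limma, 0 in edgeR and 0 in DESeq2, with 7 (22.6%) at an unadjusted p under 0.05, near the share of all genes. Their median log2 fold change was 0.04 and their range −0.23 to 0.21. Of 15 SR proteins and SR-related factors, which bind exonic enhancers, 0 passed in each of the 3 tools, with 3 (20%) at an unadjusted p under 0.05 (range −0.06 to 0.13). Of 21 hnRNP proteins 0 passed in each tool, with 1 (4.76%) at an unadjusted p under 0.05, and the range was −0.06 to 0.11. The first list had 1 call without control 1 and 2 without DcpS shRNA 2, and the SR list 2 without DcpS shRNA 1 and 1 without DcpS shRNA 2.

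Transcripts known as targets of these proteins were listed as well, with the limit that the table counts reads per gene and holds no exon or junction values, so exon use was not analysed here. Of 26 such genes 2 were lower, 0 higher and 24 did not pass, with a median log2 fold change of −0.04. That count is near the background of 5.79% of all genes and 8.48% of genes at or above the level of Nova1. The count of target genes that passed changed when a library was left out, as did the count over all genes. Dlg4 (PSD-95), whose mRNA is kept low by PTB proteins, did not pass (log2 fold change 0.05, SE 0.05; limma, Benjamini-Hochberg adjusted p 0.657) and was named, with Flna, after values were seen. Flna, a filamin with a PTB-regulated poison exon, had −0.16 (SE 0.06; 0.140).

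**Figure D5:**
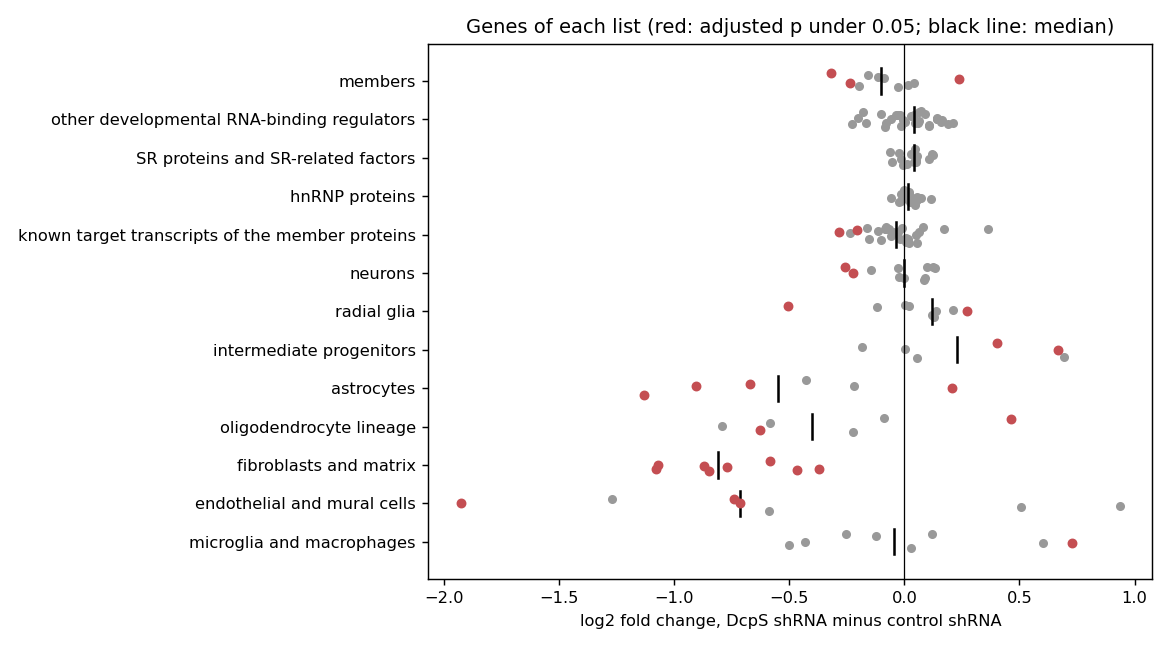
log2 fold changes, DcpS shRNA minus control shRNA (x axis), of the tested genes of each list (rows); each point is a gene, red where the adjusted p over all genes tested was under 0.05, and black lines are list medians. The 10 genes spread wider than the SR and hnRNP lists, with a median absolute log2 fold change of 0.136 against 0.0488 and 0.0195. Over all genes tested that median was 0.114, nearer to the value of the 10 genes. For fibroblasts and matrix, 8 of 8 markers are red and below 0.

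Markers of cell types differed between the groups to different degrees. Sums are over all listed markers of a type, untested ones included. Of 11 neuronal markers 2 were lower, the synaptic genes Snap25 (−0.26) and Syt1 (−0.22), and 0 higher. The summed normalised count of the neuronal list was 114300 to 115010 in the controls and 113440 to 114180 with DcpS shRNA. Of 9 radial glia markers 1 was higher (Nes, 0.27) and 1 lower (Hopx, −0.50), and of 6 intermediate progenitor markers 2 were higher (Btg2, 0.40, and Neurod4, 0.67). The summed count of radial glia markers was 27273 to 28813 in the controls, against 29115 to 29305 with DcpS shRNA. The gap between these sums rests on Nes, which had 4330 and 4333 in the controls, against 5562 and 4915 with DcpS shRNA. The radial glia median was 0.12, with 7 of 9 values above 0. The summed count of intermediate progenitor markers overlapped between groups (7754 to 8378 against 8359 to 8636). Of 8 fibroblast and matrix markers 8 were lower, with log2 fold changes of −0.87 for Col1a1, −0.77 for Col3a1, −0.85 for Col1a2, −1.07 for Postn, −0.59 for Fn1 and −0.47 for Dcn among them. Their sum was 16919 to 18470 in the controls and 10264 to 10790 with DcpS shRNA. Among 7 tested endothelial and mural markers 3 were lower (Acta2, −1.93, Kdr, −0.74, and Pdgfrb, −0.72) and 0 higher. The sum of the list was 721 to 794 in the controls and 435 to 464 with DcpS shRNA. Most of that sum was Pdgfrb, a mural gene, which had 506 and 534 in the controls, against 329 and 304 with DcpS shRNA. The endothelial and mural median was −0.72, with 2 of 7 values above 0. Those were Pecam1 (0.93) and Tagln (0.51), whose groups did not overlap and which did not pass. Of 6 tested astrocyte markers 3 were lower (Gja1, −0.67, Aqp4, −1.13, and Gfap, −0.91) and 1 higher (Aldoc, 0.21), with a median of −0.55. Aldoc held most of the summed count of the astrocyte list (3778 and 3825 in the controls, 4391 and 4395 with DcpS shRNA), and that sum overlapped between groups at 5933 to 6144 against 6018 to 6112. The other 5 tested astrocyte markers had log2 fold changes below 0, and their groups did not overlap. Microglial markers summed to 236 to 251 in the controls and 258 to 267 with DcpS shRNA (1 of 8 higher, Laptm5, 0.73). The higher microglial sum rests on Laptm5, which had 47.5 and 61.5 in the controls, against 97.2 and 83.8 with DcpS shRNA. The microglial median was −0.05, with 4 of 8 values above 0. Oligodendrocyte-lineage markers summed to 582 to 627 and 562 to 576 (1 of 6 higher, Mbp, 0.47, and 1 lower, Pdgfra, −0.63). Their median was −0.40, and only Mbp, 1 of the 6 tested, had a value above 0. Mbp had 164 and 193 in the controls, against 240 and 253 with DcpS shRNA. The counts of neuronal and astrocyte markers that passed changed when a library was left out, as did the count over all genes. The single microglial call was gone without control 1 or DcpS shRNA 1, and 1 oligodendrocyte-lineage marker passed without control 1 or DcpS shRNA 2. DESeq2 called 6 fibroblast and matrix markers, 3 astrocyte markers and 2 endothelial and mural markers. It called 1 marker each of neurons, radial glia and intermediate progenitors, and 0 of the oligodendrocyte lineage and of microglia. The part of these cells in the changes of Rbfox1, Rbfox2 and Rbfox3 was not tested.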

How the data were processed

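RNA-seq values of 4 libraries were used. The submitters' processing notes name HISAT2 2.2.0, SAMtools 1.3.1, Picard, featureCounts, DESeq2 and GRCm38, without their roles; the sources used here do not give annotation, strand or multi-mapping settings. The deposited signal per gene was scaled by the authors: within a tolerance of 0.001, 100% of values were whole multiples of the column's smallest value, which gave back whole reads (17754768 to 21793685 per library). The implied factors (0.895 to 1.10) equalled median-of-ratios factors. A count of 0 allows 3 reads, 0.138 to 0.169 CPM, for counting error only.

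Genes were kept with edgeR's filterByExpr (minimum count 10) and tested with limma 3.58.1 (trend, robust) on log2(value + 1), pseudocount 1, which understates changes of low genes. Alternatives were edgeR 4.0.16 (1077 genes called on the recovered reads), DESeq2 1.42.0, TMM or library-total scaling, pseudocounts of 0.5 and 5, no filter, limma without robust variance, a replicate block and leaving out each library. The fit was tested on simulated data. RPKM used the longest exon union per symbol in GENCODE M21 (GRCm38). Named genes were the 10 members, Dcps and up to 6 called genes per list and direction. Members and lists were chosen with earlier results of these data known. Raver1, on the list of other regulators, was not analysed here. Single-gene results for the called genes of the target list are not reported here.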

Additional observations from a re-analysis of the deposited data

How the results depend on the processing

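Across 14 alternatives, Rbfox2 kept its direction and passed in each, and Nova1, Nova2, Ptbp1 and Elavl4 kept their direction and did not pass. With DESeq2 the count of changed genes was 448 (137 higher, 311 lower) in place of 1048 (387 and 661), and 1 of the 10 passed; Rbfox1 (−0.235, adjusted p 0.155) and Rbfox3 (0.235, 0.136) did not. With no filter Ptbp2 passed at −0.159. Leaving out 1 library each, all changed genes ran from 747 to 1745, higher 277 to 637, lower 470 to 1108, the 10 genes 2 to 5, other regulators 0 to 2, the SR list 0 to 2 and target genes 1 to 5. In the same runs Rbfox1 ran from −0.293 to −0.177, Rbfox3 from 0.18 to 0.296, Ptbp2 from −0.212 to −0.106, Srrm4 from −0.169 to −0.00568 and Elavl3 from −0.0644 to 0.00768, a change of sign without DcpS shRNA 2. The cause was not tested. TMM or library-total scaling moved the median of all genes to −0.0038 or 0.00041 and changed no call of the 10. The labels do not say whether libraries with the same replicate number shared a preparation. The replicate 1 minus 2 differences of the groups had a correlation of 0.0429 across 18110 genes. With 1 such difference per group, that value cannot show whether they did. With the replicate block limma called 1626 genes (646 higher) and 2 other regulators, and edgeR with the replicate block 1 other regulator; no call of the 10 changed.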

Other observations

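Other RNA-binding families were looked at by symbol after values were seen. Among the 3 IGF2BP genes, which bind and stabilise developmental mRNAs, Igf2bp3 fell and Igf2bp1 rose in limma. Of the 3, edgeR called 2 and DESeq2 called 1. Igf2bp3 had normalised read counts of 777 and 744 in the controls, against 522 and 399 with DcpS shRNA (log2 fold change −0.73, SE 0.11; limma, Benjamini-Hochberg adjusted p 0.00106), and its 3′ UTR has at least 1 of the words searched for above. Igf2bp1 had 1005 and 1155 in the controls, against 1281 and 1273 with DcpS shRNA (0.24, SE 0.07; 0.0448), and Igf2bp2, with 0.17, did not pass (limma, Benjamini-Hochberg adjusted p 0.245).

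Other families of splicing, 3′-end processing and RNA-binding genes gave 1 call or none each in limma, where 5.79% of all genes tested were called. Of 13 Prpf genes 1 was lower, Prpf8, the central scaffold of the spliceosome (−0.20, SE 0.05), and of 7 Cpsf genes 1 was lower, Cpsf2, a subunit of the cleavage and polyadenylation factor (−0.23, SE 0.06). Of 39 Rbm genes 1 was higher, Rbm22 (0.20, SE 0.06), and of 5 Rbms and Rbpms genes 1 was lower, Rbms2 (−0.42, SE 0.09). Of 6 Larp genes 1 was higher, Larp7, which binds the 7SK RNA (0.27, SE 0.06). In edgeR 2 Rbms and Rbpms genes passed, and 1 each of the Prpf, Cpsf, Rbm and Larp genes. In DESeq2 1 Prpf gene passed, and 0 of the Cpsf, Rbm, Rbms and Rbpms, and Larp genes. Of 9 Sf3, 13 Snrp, 2 Pum and 4 Clk genes 0 passed in limma, edgeR or DESeq2, with 0 at an unadjusted p under 0.05, and of 5 Ythd genes 0 passed in these tools, with 1 at an unadjusted p under 0.05.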
